A study of Homo sapiens with 8 samples.

Results

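Aminoacyl-tRNA synthetases, the enzymes that load each transfer RNA with its amino acid, were followed through control and Z325-treated colorectal cancer cells. The members were 35 genes taken by symbol, 19 encoding cytosolic enzymes and 16 encoding mitochondrial enzymes, the latter with symbols ending in 2. All 35 were listed among the 63241 genes of the NCI-H716 tables. Among the 28043 genes of the HCT116 table, which ends early on chromosome 9, 22 were listed, 11 of each compartment. The list does not hold every human synthetase gene. Z325 is the compound ZINC000101867325, which the study picked by molecular docking as a candidate inhibitor of FGFR kinases. HCT116 and NCI-H716 are established colorectal cancer cell lines, and each was sequenced as control cells and as Z325-treated cells, labelled Control and Test, with 2 libraries per group and 8 in all. No other agent or allele is given for either group, and the study fixed 1 working concentration from its viability assay without restating dose or time for the sequenced cells. Each reaction held about 100 cells by the series description. The text of the study calls the repeats biological, but the sample labels do not say what was repeated, so the p-values measure the spread between these libraries.

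Human cells keep 2 sets of these enzymes, both encoded in the nucleus. One charges tRNA for ribosomes in the cytosol, and the other is imported and charges the tRNA encoded by mitochondrial DNA. Most amino acids therefore have a separate gene for each compartment. *GARS1* and *KARS1* are exceptions, each supplying the glycine or lysine enzyme of both compartments. Several cytosolic enzymes are held in a multisynthetase complex together with the scaffold proteins AIMP1, AIMP2 and EEF1E1. When tRNA is left uncharged, the kinase GCN2 (gene *EIF2AK4*) is activated and translation of the transcription factor ATF4 rises. ATF4 is known to induce genes of amino acid supply and many cytosolic synthetases. From that general knowledge, 13 cytosolic members were placed in an ATF4-linked subgroup and the other 6 in a comparison subgroup. The members had been chosen with earlier results of these data known. Shares and medians of either subgroup, set beside those of all genes, are therefore descriptions and not tests.

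In HCT116, 3 libraries held 13183792 to 13396225 counts and the second Z325 library held 3434620. In NCI-H716 the totals ran from 10210239 to 19738840 counts. Normalised counts below are in CPM, each library scaled to the same total after TMM normalisation, except that sums over marker lists and over compartments are plain CPM by library total without TMM. The epithelial marker *EPCAM* was present in both lines. In HCT116 the 2 listed epithelial genes summed to 1476 to 1637 plain CPM in controls and 1578 to 1649 CPM with Z325. Nearly all of it was *EPCAM*, as *VIL1* had 0 and 1 counts in controls and 6 and 0 with Z325. In NCI-H716, the 8 epithelial markers summed to 762 to 771 CPM in controls and 649 to 649.8 CPM with Z325. Of these, *CDH1* (7 and 0 counts in controls, 3 and 2 with Z325) and *KRT20* (1 and 0, then 0 and 9) were near 0. The 6 neuroendocrine genes described for NCI-H716 summed to 677 to 779 CPM in controls and 855 to 1059 CPM with Z325. Among them *NEUROD1* had only 1 and 0 counts in controls and 0 and 0 with Z325. In HCT116 the 3 listed neuroendocrine genes summed to 21.3 to 22.3 CPM in controls and 14.1 to 18.1 CPM with Z325, with *NEUROD1* at 0. Nearly all of that sum was *SCG2*, as *PCSK1* had 0 and 0 counts in controls and 2 and 0 with Z325. The part of these shifts in the results below was not tested. In NCI-H716 the 4 fibroblast markers summed to 241 to 270.1 CPM in controls and 309 to 357 CPM with Z325, nearly all from *COL3A1* (3217 and 2730 counts in controls, 4077 and 7033 counts with Z325), and the endothelial and leukocyte lists stayed under 4 CPM in every library. In bulk RNA, fewer cells of a type and less RNA per cell cannot be told apart.

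In HCT116, the transcripts of the glycine and serine enzymes rose with Z325, *GARS1* by 1.59-fold and *SARS1* by 1.54-fold. These were 2 of the 20 members that could be tested, and no member fell at an adjusted p under 0.05 in edgeR's quasi-likelihood test. Over all 6491 genes tested, 2.83% were called higher and 2.94% lower. Before adjustment, 6 members were higher and 3 lower at p under 0.05, where all genes gave 11.2% and 12.7%. DESeq2 called 5 members higher (6.19% of all genes) and 0 lower (5.5%), adding *EPRS1*, *LARS1* and *RARS2*.

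*GARS1* (chr7:30580533-30634033, GRCh38, plus strand) encodes glycyl-tRNA synthetase. Its normalised counts were 339 and 417 CPM in the control libraries and 569 and 630.3 CPM in the Z325 libraries. The groups did not overlap, and the means were 378 ± 54.7 and 599.9 ± 43 CPM (SD, n = 2). The log2 fold change was 0.67 (SE 0.145, edgeR adjusted p = 0.0382). *SARS1* (chr1:109213918-109238182, GRCh38, plus strand) encodes seryl-tRNA synthetase. It gave 495 and 618 CPM in the controls and 826 and 885 CPM with Z325, again without overlap, with means of 556 ± 86.9 and 856 ± 41.7 CPM (SD, n = 2). Its log2 fold change was 0.62 (SE 0.144, edgeR adjusted p = 0.0447). Both calls were lost when either control library was left out, with adjusted p-values of 0.159 and 0.265 for *GARS1* and 0.159 and 0.304 for *SARS1*. Without the shallow second Z325 library the log2 fold changes were 0.62 for *GARS1* and 0.60 for *SARS1*. Without the first Z325 library they were 0.72 and 0.66. Each of these fits left 1 Z325 library alone in its group. Over all genes, the calls numbered 44 and 23 without one or the other control library, against 375 with all 4 libraries. Of the exon bases of *GARS1*, 1.8% overlap the divergent transcript *GARS1-DT* on the other strand, so its counts carry that uncertainty.

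The other ATF4-linked members in HCT116 lay below the threshold. *EPRS1*, the joined glutamate and proline enzyme, had a log2 fold change of 0.46 (adjusted p = 0.082), with 766 and 658 CPM in controls and 1023 and 936 CPM with Z325. *LARS1*, the leucine enzyme, had 0.41 (adjusted p = 0.118). *TARS1*, the threonine enzyme, had 0.32 (adjusted p = 0.152), with 705 and 738 CPM against 875 and 930 CPM. In all 3 genes, both Z325 libraries stood above both controls. *YARS1*, the tyrosine enzyme, overlapped between the groups with a log2 fold change of -0.11. The tested ATF4-linked members thus had both Z325 libraries above both controls in 5 of 6 genes, against 24.8% of all genes tested. Their median log2 fold change was 0.44, beside -0.03 over all genes tested. The 4 tested members of the other cytosolic subgroup, *FARSB*, *HARS1*, *QARS1* and *RARS1*, all had negative values, from -0.60 to -0.06 with a median of -0.37, and none was called. In 3 of the 4 both Z325 libraries lay below both controls, against 29% of all genes tested.

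The valine genes could not be read in HCT116. The cytosolic *VARS1* had counts of 2, 0, 0 and 0, and the mitochondrial *VARS2* had 0 in all 4 libraries, where a count of 0 allows up to 3. Both lie on the short arm of chromosome 6. Between them, 44 of the 51 protein-coding genes listed in HCT116 (86.3%) had at most 3 counts summed over the 4 libraries. In NCI-H716 this held for 24 of 52 (46.2%). Over the part of chromosome 6 more than 4 Mb away, the shares were 21.9% and 21.2%. The cause was not tested, and no value is given for either gene in HCT116.

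In NCI-H716, no synthetase transcript passed the adjusted threshold in edgeR, and the fold changes of the ATF4-linked cytosolic enzymes were nonetheless almost all positive. Of the 14142 genes tested, 0.403% were called higher and 0.099% lower. Before adjustment, 7 of the 35 members were higher and 2 lower at p under 0.05, where all genes gave 7.59% and 9.27%. DESeq2 called 4 members higher at an adjusted p under 0.05 (1.22% of all genes) and 0 lower (1.35%). Those 4 were *AARS1*, *CARS1*, *GARS1* and *WARS1*, and their library values were added after the results were seen. Without the first Z325 library, edgeR called the same 4 genes higher and *VARS1* lower (log2 -1.01, adjusted p = 0.00322), in a fit that called 3.35% of all genes higher and 5.91% lower. Without the second it called *CARS1* alone (adjusted p = 0.00405), with 0.77% of all genes higher and 0.716% lower. Without either control it called 0 members, with 0.208% and 0.504% of all genes higher.

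*CARS1*, the cysteine enzyme, gave 16.6 and 14.8 CPM in the controls and 35.4 and 27.6 CPM with Z325. Its 2.0-fold difference was the largest among the members in this line (log2 1.0, SE 0.221, edgeR adjusted p = 0.092). *WARS1*, the tryptophan enzyme and also a gene known to be induced by interferon, had closely matched libraries. It gave 200.4 and 204 CPM in controls against 324 and 329.6 CPM with Z325 (log2 0.69, SE 0.152, edgeR adjusted p = 0.092). *GARS1* gave 431 and 554 CPM in controls and 768 and 865 CPM with Z325 (log2 0.73, SE 0.175, edgeR adjusted p = 0.115). *AARS1*, the alanine enzyme, gave 109 and 144 CPM against 186 and 226 CPM (log2 0.70, edgeR adjusted p = 0.134). *SARS1* gave 208 and 219.7 CPM against 335 and 287 CPM (log2 0.54, edgeR adjusted p = 0.167). In each of these 5 genes the Z325 libraries lay above both controls. Of *WARS1* exon bases, 10.6% overlap genes on the other strand, so its values are uncertain where reads could be shared.

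The remaining ATF4-linked members had smaller values. *EPRS1*, *TARS1*, *MARS1*, *NARS1*, *YARS1*, *IARS1* and *LARS1* ranged from 0.17 to 0.39 on the log2 scale. *MARS1*, the methionine enzyme, is uncertain because 7.38% of its exon bases overlap *ARHGAP9* and 5.05% overlap *DDIT3*, a stress gene on the other strand. *VARS1* was the exception in sign, with 68.1 and 55.4 CPM in controls and 45.6 and 30.4 CPM with Z325 (log2 -0.71, SE 0.226, edgeR adjusted p = 0.183). Its Z325 libraries lay below both controls. Over all 35 members this held for 7 genes, against 25.1% of all genes tested. In the whole ATF4-linked subgroup, both Z325 libraries stood above both controls in 11 of 13 genes, against 24.3% of all genes tested. The subgroup's median log2 fold change was 0.39, beside -0.01 over all genes and 0.04 in the other cytosolic members, which ran from -0.07 to 0.17 on leaving out 1 library. In that second subgroup, *FARSA* and *FARSB*, the paired subunits of the phenylalanine enzyme, had -0.38 and -0.40, while *HARS1* had 0.39 and *QARS1* 0.31.

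**Figure D1:**
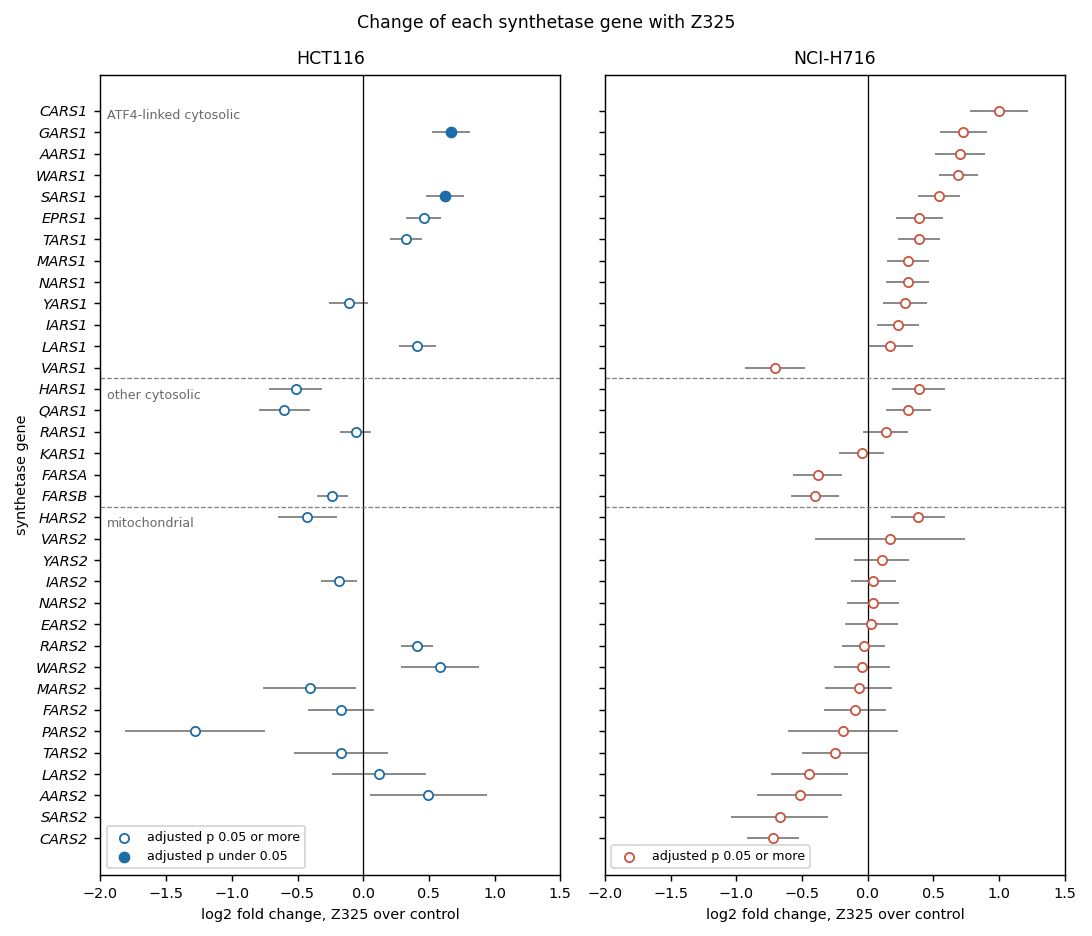
Log2 fold change of Z325 over control for every tested synthetase gene, with bars of 1 SE from edgeR (2 libraries per group). The dashed lines part the ATF4-linked cytosolic, other cytosolic and mitochondrial genes, and the filled points, *GARS1* and *SARS1* in HCT116, are the only ones at an adjusted p under 0.05.

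*KARS1*, the lysine enzyme that also serves both compartments, contrasted with *GARS1*. It gave 287 and 335 CPM in the NCI-H716 controls and 274 and 328 CPM with Z325. The groups overlapped, and the log2 fold change was -0.05 (SE 0.168, edgeR adjusted p = 0.913). Its gene on chromosome 16 was not listed in the HCT116 table. The difference between *GARS1* and *KARS1* was not itself tested.

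**Figure D2:**
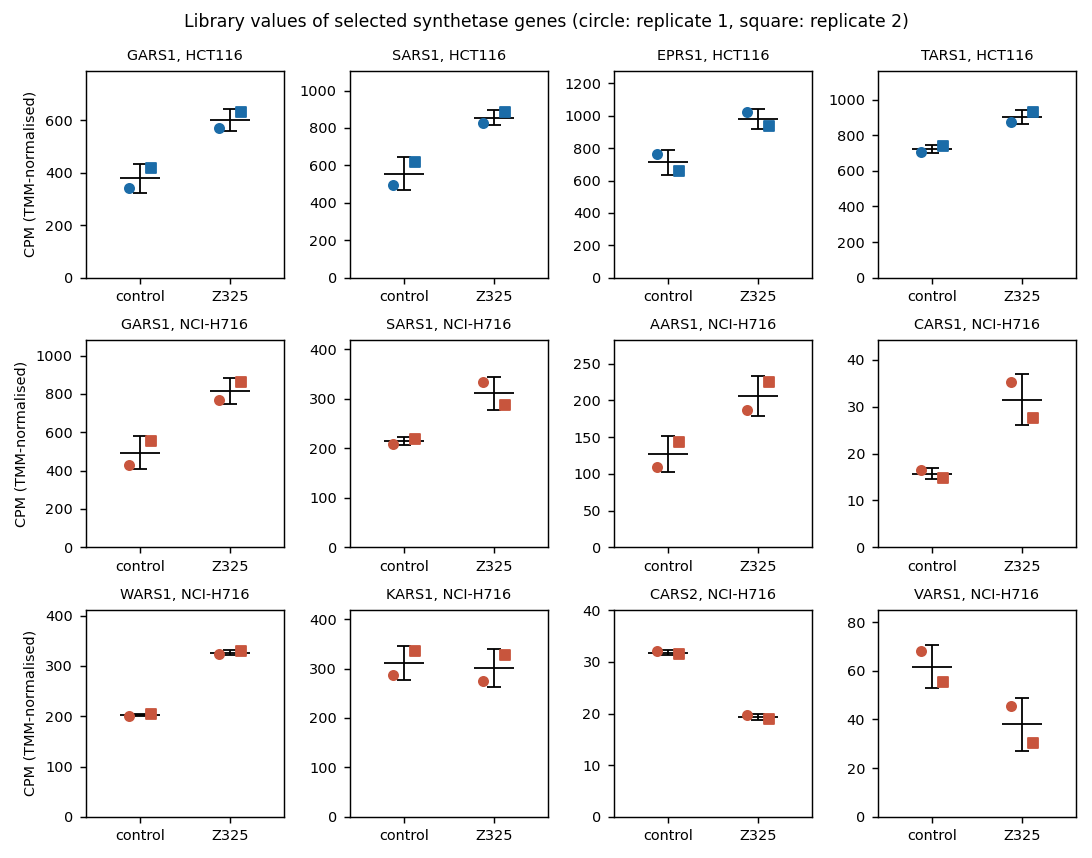
TMM-normalised CPM in each library for selected synthetase genes, with circles for replicate 1, squares for replicate 2, and black bars for the mean and SD of 2 libraries. *KARS1* is shown for its overlap between the groups, and *CARS2* and *VARS1* are genes whose Z325 libraries lie below both controls.

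No transcript of a mitochondrial enzyme was called in either line by edgeR with all libraries and no replicate block, and both signs occurred. In NCI-H716 their log2 fold changes ran from -0.72 to 0.38 with a median of -0.06, and 10 of 16 were negative. Over all genes tested in this line, 49.4% were positive. Both Z325 libraries stood above both controls in 24.3% of all genes and below them in 25.1%. The groups of the mitochondrial members overlapped in 11 of 16 genes. *CARS2*, the mitochondrial cysteine enzyme, had the lowest value, with 32.1 and 31.5 CPM in controls and 19.7 and 18.9 CPM with Z325 (log2 -0.72, SE 0.197, edgeR adjusted p = 0.144). *SARS2*, the serine enzyme, had -0.67 (adjusted p = 0.387), and 48.2% of its exon bases lie in an overlapping gene on the same strand, so its count is uncertain. *AARS2*, the alanine enzyme, and *LARS2*, the leucine enzyme, had -0.52 and -0.44 with Z325 libraries below both controls. Only *HARS2* had both Z325 libraries above both controls. *NARS2*, *EARS2*, *IARS2*, *RARS2* and *WARS2* lay within 0.05 of 0 on the log2 scale.

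In HCT116, the 10 tested mitochondrial members ran from -1.28 to 0.58 with a median of -0.17. *RARS2*, the arginine enzyme, gave a log2 fold change of 0.41 (adjusted p = 0.087), and *WARS2*, the tryptophan enzyme, 0.58 (adjusted p = 0.277). *PARS2*, the proline enzyme, had the lowest value at -1.28 (SE 0.535, adjusted p = 0.192). It averaged 8.74 ± 1.2 CPM in controls and 3.26 ± 2.58 CPM with Z325 (SD, n = 2), so the shallow library limited its precision. Without the first Z325 library, which left the shallow one alone in its group, *PARS2* and *HARS1* were called lower (edgeR adjusted p = 0.0013 and 0.0135), in a fit that called 7.8% of all genes lower. Leaving out 1 library moved the log2 fold change of *PARS2* between -2.61 and -0.75. Without the shallow library, *EPRS1* and *WARS2* joined *GARS1* and *SARS1* as higher (edgeR adjusted p = 0.00552 and 0.0206), where 7.25% of all genes were called higher. A library left alone in its group is assumed to vary like the others.

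Setting each cytosolic gene beside the mitochondrial gene of the same amino acid gave 17 pairs in NCI-H716. In 14 of them the cytosolic fold change was the larger, and over all 17 pairs the median difference was 0.37 on the log2 scale. The widest gap was for cysteine, 1.0 for *CARS1* against -0.72 for *CARS2*. Alanine followed with 0.70 against -0.52, and serine with 0.54 against -0.67. The histidine pair was level at 0.39 for *HARS1* and 0.38 for *HARS2*. In the valine pair and in both phenylalanine pairings the order was reversed, with -0.71 for *VARS1* against 0.17 for *VARS2*. Of the exon bases of *VARS2*, 63% are shared with another gene. In HCT116 only 6 pairs could be formed, and the cytosolic change was the larger in 3 of them. The pairs share libraries and, for *EPRS1* and *FARS2*, genes, so these counts are descriptions.

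**Figure D3:**
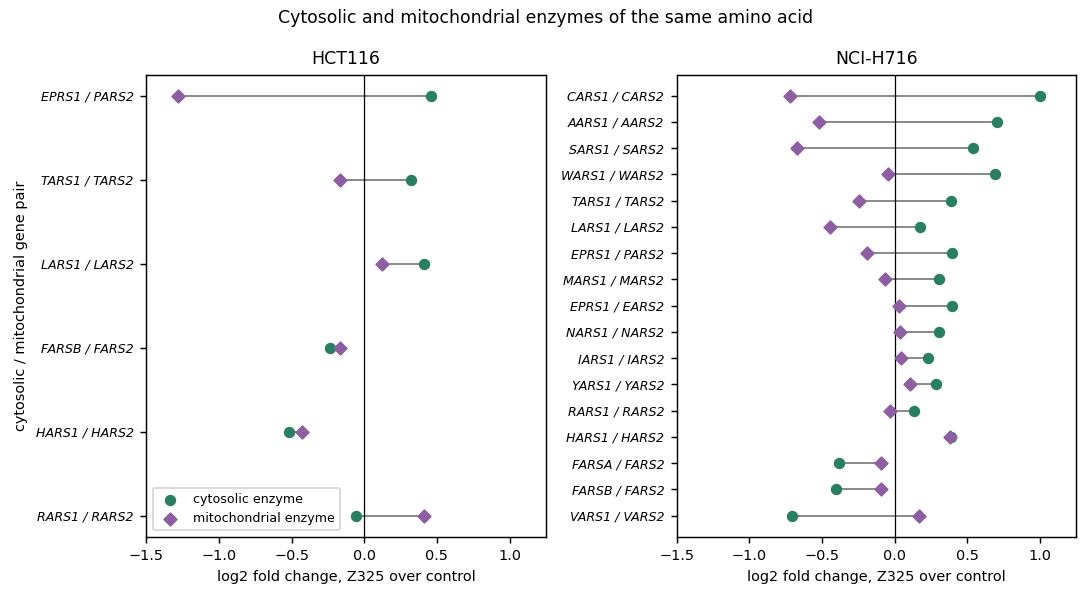
Log2 fold changes of Z325 over control for cytosolic (circles) and mitochondrial (diamonds) enzymes of the same amino acid, ordered by their difference. Circles lie to the right of diamonds in 14 of 17 pairs in NCI-H716 and in 3 of 6 in HCT116.

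Levels between genes were compared per length, as TPM, the share of transcripts that a gene supplies once its length is taken into account. In NCI-H716 controls the mean level of a cytosolic enzyme exceeded that of its mitochondrial partner in 16 of 17 pairs. The ratio ran up to 92.2 for *EPRS1* over *PARS2*, and cysteine was the exception at 0.305. *GARS1* had the highest mean level at 182 TPM (158 and 207 in its libraries). *KARS1* (127 and 148 TPM) and *TARS1* (112.5 and 162 TPM) came next, and their libraries overlapped each other. *VARS2* was lowest at 0.755 TPM. Summed over the 19 cytosolic genes, the level was 1257 and 1446 TPM in controls and 1738 and 1826 TPM with Z325. The Z325 mean of this sum was higher by 31.9% by TPM and by 26.9% by plain CPM. The mitochondrial sum was 187 and 196 TPM in controls and 192 and 197 TPM with Z325, and these groups overlapped. The ratio of the cytosolic to the mitochondrial sum was 6.73 and 7.37 in controls and 9.06 and 9.28 with Z325, and by plain CPM it was 7.42 and 8.12 against 10.1 and 10.3.

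For HCT116, TPM was computed from the counts and the lengths in the table, over the listed genes only, so its levels are not on the scale of NCI-H716. The cytosolic sum was 3006 and 2992 TPM in controls and 3086 and 3354 TPM with Z325. The mitochondrial sum was 303 and 316 TPM in controls and 277 and 297 TPM with Z325. The ratio was 9.93 and 9.47 in controls and 11.2 and 11.3 with Z325, but by plain CPM it was 7.39 and 7.04 against 7.29 and 7.24, with overlap. The difference between the means of the mitochondrial sum was -7.29% by TPM and 10.9% by plain CPM without TMM. The direction of the mitochondrial sum in HCT116 therefore depended on the length scaling. *RARS2*, with 17631 exon bases, weighed heavily in the plain CPM sum, whose control mean was 758 CPM. By TMM-normalised CPM this gene averaged 416 in controls and 553 with Z325, and by TPM 69.5 and 87.2. The sum without *RARS2* was not tested.

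**Figure D4:**
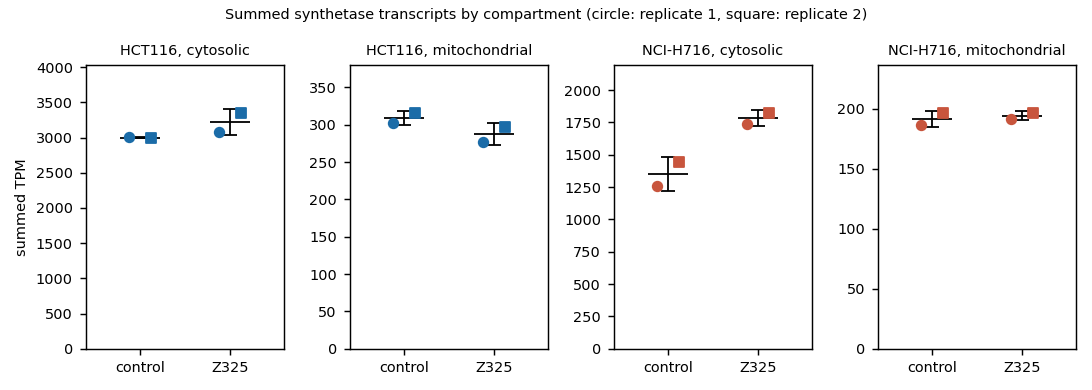
Summed TPM of the cytosolic and mitochondrial synthetase genes in each library (circles for replicate 1, squares for replicate 2, bars for mean and SD of 2 libraries). Cytosolic sums in NCI-H716 are 1257 and 1446 TPM in controls and 1738 and 1826 TPM with Z325, and each panel has its own axis starting at 0.

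Grouping by structure gave a mixed picture. The 7 enzymes of the multisynthetase complex had a median of 0.23 in NCI-H716, and the 12 cytosolic enzymes outside it had 0.39. In HCT116 the medians were 0.18 over 4 genes and 0.11 over 6 genes. The complex included *KARS1*, *RARS1* and *LARS1*, whose groups overlapped in NCI-H716. Synthetases also fall into the unrelated folds class I and class II. In NCI-H716 the cytosolic medians were 0.28 for class I and 0.39 for class II, and the mitochondrial medians were -0.03 and -0.19. None of these differences was tested.

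The response element of ATF4 with C/EBP partners has a core that can be written TGATGNAA, read as TTNCATCA from the other strand. Windows from 250 bases before to 50 bases after each RefSeq start site (GRCh38.p14) were searched on both strands. A window was found for 30 of the 35 members, with none for *AARS2*, *LARS1*, *VARS1*, *VARS2* and *YARS1*. The core occurred in 7 of 10 ATF4-linked genes (70%), in 0 of 6 other cytosolic genes and in 1 of 14 mitochondrial genes (7.14%), in 4.46% of the 27305 genes with a window, and in 3.62% of all 35116 windows. The ATF4-linked subgroup was drawn up from knowledge of ATF4 binding, so its share is not independent of the search. The 8 matches are shown because they can be set beside the fold changes. By the rule for the text only *GARS1* would be shown, and the other 7 were added after the results were seen. Each run has 30 bases in the direction of the gene, with the core in capitals.
GARS1: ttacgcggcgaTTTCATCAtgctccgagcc
CARS1: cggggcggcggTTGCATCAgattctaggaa
AARS1: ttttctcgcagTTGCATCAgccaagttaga
TARS1: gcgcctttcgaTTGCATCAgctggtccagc
MARS1: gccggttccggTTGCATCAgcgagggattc
NARS1: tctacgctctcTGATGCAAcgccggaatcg
IARS1: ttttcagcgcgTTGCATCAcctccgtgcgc
YARS2: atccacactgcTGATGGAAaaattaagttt

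The plus-strand runs were chr7:30594834-30594863 for *GARS1*, chr5:33440956-33440985 for *TARS1* and chr12:57488053-57488082 for *MARS1*. The minus-strand runs were chr11:3057407-3057436 for *CARS1*, chr16:70289675-70289704 for *AARS1*, chr18:57621804-57621833 for *NARS1*, chr9:92293692-92293721 for *IARS1* and chr12:32756076-32756105 for *YARS2*. In *CARS1*, *TARS1* and *MARS1* the core began within 4 bases of the start site, in *IARS1* 13 and in *GARS1* 33 bases before it, and in *NARS1* at base 15 of the transcript. In *AARS1* and *YARS2* it lay 187 and 197 bases upstream. The 7 ATF4-linked genes with the core had log2 fold changes from 0.23 to 1.0 in NCI-H716. The 3 without it, *EPRS1*, *SARS1* and *WARS1*, had 0.39, 0.54 and 0.69, within that range, and *YARS2* had 0.11. Thus *SARS1*, called in HCT116, did not hold these letters in its window.

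Genes around the charging reaction were taken from written lists. *AIMP1*, the scaffold of the multisynthetase complex, rose in HCT116 (495 and 483 CPM in controls, 791 and 695 CPM with Z325, log2 0.60, edgeR adjusted p = 0.0349). *AIMP2* and *EEF1E1* had 0.26 and 0.25 there and were not called. Thus 1 of 3 scaffold genes was called higher in HCT116, beside 2.83% of all genes tested. In NCI-H716 the 3 scaffold genes had 0.31, -0.52 and 0.17, and none was called. No gene was called in either line in the lists of tRNA export and maturation factors, mitochondrial charging partners or cytosolic and mitochondrial elongation factors. The cytosolic elongation factor gene *EEF1B2* had a log2 fold change of 3.54 in HCT116 that rested on the shallow library. It gave 16.7 and 27.4 CPM in controls and 18.2 and 504 CPM with Z325 (edgeR adjusted p = 0.106). The cause was not tested. The proofreading enzymes were tested in NCI-H716 alone, where 0 of 3 were called. All 4 mitochondrial elongation factors had negative values in NCI-H716, with a median of -0.30, where 49.4% of all genes were positive, and 0 of 4 passed. In HCT116, 1 of the 2 tested was positive and 1 negative.

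Regulators that sense uncharged tRNA or act in the ATF4 branch were read mainly in NCI-H716. *TRIB3*, a pseudokinase gene induced by ATF4, was the 1 of 12 called (log2 1.43, edgeR adjusted p = 0.0041). Over all genes tested in this line, 0.403% were called higher. *ATF4* itself gave 169 and 181 CPM in controls and 281 and 379 CPM with Z325 (log2 0.91, edgeR adjusted p = 0.0665). *EIF2AK4*, encoding the sensor GCN2, had 0.09 (adjusted p = 0.836) with overlapping groups. Neither gene was listed in HCT116, where 0 of the 4 tested regulators were called.

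Targets of ATF4 outside charging were called higher for 4 of 21 genes tested in NCI-H716 and 4 of 7 in HCT116, where all genes gave 0.403% and 2.83%, and 0 were called lower. *SLC7A11*, the cystine and glutamate exchanger, rose in both lines, by 6.30-fold in HCT116 and 4.76-fold in NCI-H716. In NCI-H716 *ASNS* (asparagine synthetase, log2 1.21), *PHGDH* (the entry enzyme of serine synthesis, 1.09) and *SLC3A2* (the transporter partner of *SLC7A11*, 1.14) rose as well. In HCT116 *STC2*, a secreted glycoprotein, rose by 1.17 on the log2 scale. *CTH*, which makes cysteine from cystathionine, rose there by 0.97, and *MTHFD2*, a mitochondrial folate enzyme, by 0.58. A call in 1 line alone does not make these genes specific to it. In NCI-H716 *STC2*, *CTH* and *MTHFD2* had 1.14, 0.82 and 0.76, uncalled but with both Z325 libraries above both controls. The same held for *PHGDH* in HCT116, at 0.69. *ASNS* had -0.10 in HCT116, on 12 and 24 counts in controls and 27 and 0 with Z325. The medians of this list were 0.82 in NCI-H716 and 0.69 in HCT116, larger than those of the ATF4-linked synthetases, and this difference was not tested. These lists and members were measured in the same libraries and are not independent of each other.

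Between the lines, 20 members could be compared. Of these, 5 were positive in both, 5 negative in both and 10 of opposite sign. Opposite directions without overlap of the groups in either line held for 4 of the 20 members, against 9.51% of the 5014 genes tested in both. *EPRS1*, *GARS1*, *SARS1* and *TARS1* had both Z325 libraries above both controls in both lines, 4 of 20 members against 9.89% of the 5014 genes tested in both. The interaction of treatment and cell line, fitted over all 8 libraries, called 0 of the 20 members, against 0.0654% of 7642 genes. Before adjustment it marked 4 at p under 0.05, *QARS1*, *HARS1*, *HARS2* and *RARS2*, against 14.3% of all genes, and DESeq2 called 132 genes, 0 of them members. For *GARS1* the effect in HCT116 minus that in NCI-H716 was -0.05 on the log2 scale (SE 0.226), and for *SARS1* it was 0.10 (SE 0.212). With errors of this size the effects cannot be called equal.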

How the data were processed

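RNA from HCT116 and NCI-H716 cells, control or Z325-treated, was sequenced in 8 libraries after SMART-Seq2 amplification. For NCI-H716 the authors deposited RSEM expected counts, TPM and FPKM per gene for each library. For HCT116 the authors deposited 1 table of unnormalised read counts with gene lengths. The methods of the study name STAR, RSEM, GRCh38 and a two-tailed t-test, while the submitters' processing notes name Bowtie2 2.5.0, featureCounts and hg38. The HCT116 table used here lists chromosomes 1 to 8 and 65 genes of chromosome 9, which is 43.5% of GENCODE protein-coding genes, and 4 broken lines were left out. HCT116 TPM and FPKM were computed here. How shared reads were assigned, and whether strand was used, is not given in the sources used here.

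Expected counts were rounded. Each line was fitted alone in edgeR 4.0.16 (R 4.3.3) with TMM, filterByExpr, the quasi-likelihood test and Benjamini-Hochberg adjustment over all genes tested, and calls were made at an adjusted p under 0.05. The t-test of the study was an alternative, since counts need a count test and 2 libraries per group hardly allow it. Alternatives were DESeq2 1.42.0, library size alone, a minimum of 10 counts, no filter, a replicate block, limma 3.58.1 on log2(FPKM + 1) or log2(FPKM + 0.1), and leaving out each library. An exact permutation test of 2 against 2 libraries cannot go below p = 0.333, so none is given. The steps were tested on simulated data with planted changes larger than those of any member in the main fits. That run therefore cannot say how well changes of the members' size are found.

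The members and lists were chosen with earlier results of these data known. Library values were to be given for called members and for *GARS1* and *KARS1*, and list genes were named where called, with *ATF4* and *EIF2AK4*. Other members shown by library, the 8 promoter runs apart from that of *GARS1*, *COL3A1* and *EEF1B2* were chosen after their values were seen. Promoter sequences are from RefSeq. Figures were drawn with matplotlib.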

Additional observations from a re-analysis of the deposited data

Results flagged for a closer look

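In 4 members both Z325 libraries moved one way from both controls in HCT116 and the opposite way in NCI-H716, 4 of 20 against 9.51% of the 5014 genes tested in both lines. *QARS1*, the glutamine enzyme, had a log2 fold change of -0.60 in HCT116 (83.2 and 72.3 CPM in controls, 48.2 and 54.7 CPM with Z325) and 0.31 in NCI-H716 (63.2 and 65.5 CPM against 74.2 and 85 CPM). The interaction was -0.90 (SE 0.246, edgeR unadjusted p = 0.00346, adjusted p = 0.177). *HARS1*, the cytosolic histidine enzyme, had -0.52 in HCT116 and 0.39 in NCI-H716, with an interaction of -0.89 (SE 0.296, edgeR adjusted p = 0.227). *HARS2*, its mitochondrial neighbour on the other strand of chromosome 5, had -0.43 and 0.38, with an interaction of -0.80 (SE 0.298, edgeR adjusted p = 0.26). These neighbours share 108 exon bases, so their counts are not fully separate where strand was not used. *AARS2* had 0.50 in HCT116 and -0.52 in NCI-H716, with an interaction of 1.03 (SE 0.541, edgeR adjusted p = 0.406), at no more than 7.86 CPM in any library. None of the 4 differences passed the adjusted threshold, and the tables of the lines were made by different counting, so line and counting cannot be told apart.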

How the results depend on the processing

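Over 78 results and 959 combinations of result and alternative, 815 were labelled the same, 36 reversed, and the rest were weaker, stronger or moved. A gene was the same if it kept its direction and its side of the threshold. Medians and sums were the same within the spread, and numbers of calls within a ratio of 1.5 or at 0 in both. In HCT116, DESeq2 called 5 members higher, and limma on FPKM at each setting and the t-test called 0 (35, 32 and 0 genes in all by limma and 138 by the t-test). In NCI-H716, DESeq2 and the fit with no filter each called 4 higher (1.22% and 0.907% of all genes, with 1.35% and 1.52% lower). With the replicate block, 7 members were called higher and 4 lower in NCI-H716 (1061 and 1336 of all 14142 genes). There the difference of replicate 1 minus replicate 2 in controls correlated over genes with that in Z325 at 0.286 (-0.0217 in HCT116). With 2 pairs and no stated link the numbers are only shared, and the block ended no call in HCT116. Leaving out 1 library gave 0 to 4 higher and 0 to 2 lower calls in HCT116, and 0 to 4 higher and 0 to 1 lower in NCI-H716.

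The cytosolic median in HCT116 was 0.166 with DESeq2, 0.0943 with library size alone, 0.0801 with no filter, 0.0923 and 0.0928 with limma at pseudocounts of 1 and 0.1, and 0.0937 on the t-test's FPKM, with 0.0833 to 0.146 on leaving out libraries. The mitochondrial median there ran from -0.259 to 0.0499 on leaving out libraries. In NCI-H716 the cytosolic median was 0.386 and 0.388 with limma and 0.383 on the t-test's FPKM. The mitochondrial median there was -0.0434 with at least 10 counts, -0.0381 with no filter, -0.0316, -0.0329 and -0.0343 with limma, and -0.0784 to -0.0453 on leaving out libraries. The ATF4-linked median in HCT116 was 0.471 with DESeq2, 0.383 with no filter and 0.347 to 0.492 on leaving out libraries. In NCI-H716 the ATF4-linked median was 0.556 and 0.559 with limma, 0.558 on the t-test's FPKM and 0.298 to 0.497 on leaving out libraries. The median of the other cytosolic members in HCT116 ran from -0.378 to -0.269 on leaving out libraries. Mitochondrial sums by plain CPM without TMM changed by 0.149 in HCT116 and -0.0489 in NCI-H716 on the log2 scale. The causes were not tested.

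Reversals were among values near 0. On FPKM scales, *FARS2* in NCI-H716 was 0.0912, 0.0977, 0.0912 and 0.0784, *RARS2* was 0.11 in all 4, and *VARS2* was -0.037 and -0.0511. The interaction was 0.043 and 0.0309 for *GARS1* with DESeq2 and the 10-count minimum, and -0.0226 for *SARS1* with no filter. On leaving out libraries the log2 values ran from -0.42 to 0.12 for *FARS2* and -0.12 to 0.41 for *LARS2* in HCT116. In NCI-H716 they ran from -0.167 to 0.0839 for *KARS1*, -0.0622 to 0.132 for *EARS2*, -0.31 to 0.18 for *FARS2*, -0.0585 to 0.166 for *IARS2*, -0.32 to 0.23 for *MARS2*, -0.0901 to 0.192 for *NARS2*, -0.40 to 0.031 for *PARS2*, -0.106 to 0.0667 for *RARS2*, -0.11 to 0.40 for *VARS2* and -0.153 to 0.0923 for *WARS2*. The interaction ran from -0.249 to 0.069 for *GARS1* and -0.0499 to 0.232 for *SARS1*. The shallow Z325 library of HCT116 limits the low mitochondrial genes there.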

Other observations

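*YARS2*, the mitochondrial tyrosine enzyme, read differently by unit in NCI-H716. Its level was 14.3 and 19.1 TPM in controls and 30.3 and 31.9 TPM with Z325, without overlap. Its normalised counts were 21.7 and 20.9 CPM in controls and 24.7 and 21.2 CPM with Z325, which overlapped. TPM divides by an effective length that RSEM estimates in each library, and 18.1% of the gene's exon bases are shared with another gene. The cause of the difference between units was not tested.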
